A study of Rattus norvegicus with 90 samples.

Results

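The comparison concerns primary rat renal proximal tubular epithelial cells exposed for 9 h to a high dose (0.500 mM, 5 libraries) or a low dose (0.125 mM, 5 libraries) of thioacetamide-S-oxide. These 10 libraries were chosen from their sample labels among the 90 libraries of the series. The cells came from Sprague-Dawley rats, were bought frozen, and were plated and cultured without the agent before exposure began. Both groups therefore carry the agent, and the vehicle cultures, which are not part of the contrast, received medium alone (5 libraries at 9 h). The question the comparison answers is which transcripts changed between an exposure at the low dose and one at a 4-fold higher dose after the shorter of 2 exposure times. Other libraries of the series hold the same cells at 24 h and hepatocytes and cardiomyocytes at both times, with doses set separately for each cell type.

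Thioacetamide is a liver toxicant that has to be oxidized before it is harmful. Thioacetamide-S-oxide is the first product of that oxidation, and a further oxidation gives a reactive species that binds covalently to proteins and lipids. Proximal tubular epithelial cells line the first segment of the nephron, reabsorb most of the filtered solutes, depend on oxidative metabolism, and are a frequent site of injury by toxicants. Cells in culture lack the blood supply and the neighboring cell types of the kidney. Whether the libraries came from separate thaws or donors is not given in the sources used here, so p-values measure only the spread between these samples, which may be technical.

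The deposited tables list transcripts by Ensembl identifier and do not pair them with genes. None of the transcripts (0) could be matched to the gene table at hand (assembly GRCr8), so results are given per transcript, the cell type could not be checked against its marker genes, and pathways were not scored. The low-dose libraries held between 21234086 and 31193747 estimated counts and the high-dose libraries between 25102100 and 37837044. Low-dose library MS-130 stood farthest from its group, with a mean absolute difference of 0.274 on the log2 CPM scale (CPM, counts scaled to the library total) from the mean of the other 4, against 0.166 to 0.227 for the other low-dose libraries and 0.147 to 0.188 for the high-dose ones. The counts and shares below that rest on the low-dose group were also computed without it where stated, and the number of DEGs described next was then 2371, 1171 of them higher.

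The first axis of variation among the 15 renal libraries at 9 h followed the dose. On the first principal component of log2(CPM + 0.5) over 18221 transcripts, which held 33.8% of the variance, the vehicle libraries lay between -30.8 and -29.3, the low-dose libraries between -9.80 and -7.93, and the high-dose libraries between 35.9 and 43.9. The groups did not overlap and stood in the order of the dose, with a wider gap between the low and high doses than between vehicle and the low dose. The second component, with 14.97% of the variance, did not follow the dose. On it the low-dose libraries, between -39.2 and -15.4, lay below both the high-dose libraries (5.31 to 11.7) and the vehicle libraries (16.5 to 19.1). The low-dose group was also the most spread of the 3 along this axis.

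**Figure D1:**
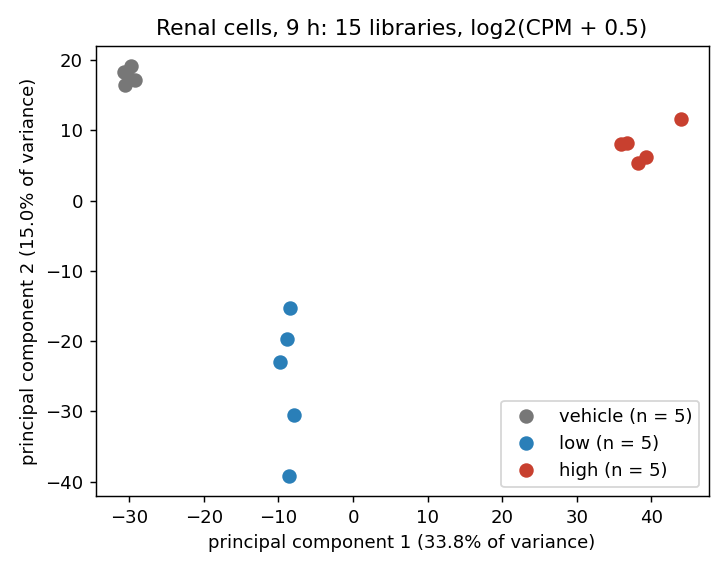
Scores of the 15 renal libraries at 9 h on the first 2 principal components of log2(CPM + 0.5); each point is a library, colored by dose. The 3 groups are separate, with the high-dose libraries at the right (35.9 to 43.9 on the first component) and the low-dose libraries below the other groups on the second.

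Between the high and low doses, 2249 transcripts were DEGs, which is 12.7% of the 17641 transcripts tested. A DEG is here a transcript with an adjusted p-value of at most 0.05 in edgeR's quasi-likelihood test and a change of at least 0.41 on the natural-log scale, which is 1.51-fold. Of these, 1099 were higher at the high dose (6.23% of those tested) and 1150 were lower (6.52%), so that 48.9% of the DEGs were higher. The median log2 fold change was 0.92 among the higher DEGs (quartiles 0.74 and 1.36) and -0.82 among the lower DEGs (quartiles -1.04 and -0.68), against -0.0011 over all transcripts tested. Without the fold-change threshold, 8011 transcripts passed the adjusted p-value. In bulk RNA, fewer expressing cells and less RNA per cell cannot be told apart.

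In this fit the 2 directions were alike in number but not in size. With the genomic intervals described below in the same fit, 1015 transcripts were higher and 1312 lower DEGs. At 2-fold or more, 809 transcripts were DEGs (4.59% of those tested), 477 of them higher and 332 lower. Between 4- and 8-fold the counts were 87 higher and 14 lower, and at 8-fold or more 42 higher and 6 lower. Large increases were mostly found in transcripts of low abundance. The 622 higher DEGs under 2-fold had a median level of 2.88 log2 CPM, while the 42 higher DEGs of 8-fold or more had a median of -0.25 log2 CPM, with 24 of them below 1 CPM on average. The groups' libraries did not overlap in 39 of the 42 higher and in 2 of the 6 lower DEGs of 8-fold or more, beside 35.3% of all transcripts tested, and the DEGs had been chosen for differing between these libraries.

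**Figure D2:**
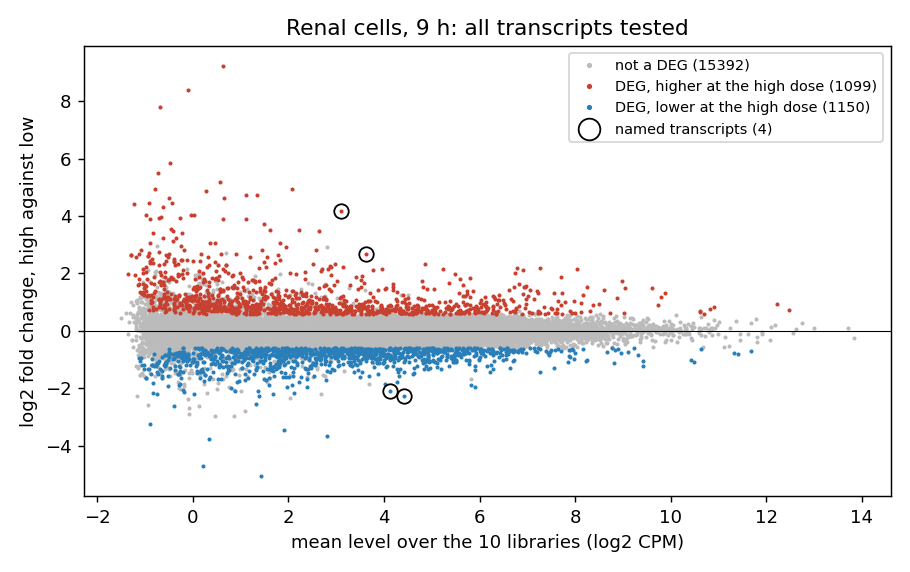
Log2 fold change of high against low dose (vertical axis) against the mean level over the 10 libraries in log2 CPM (horizontal axis) for the 17641 transcripts tested; red and blue points are the 1099 higher and 1150 lower DEGs and circles mark 4 named transcripts. Increases reach farther from 0 than decreases, mainly at the left of the plot where levels are low.

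The overlap of the libraries behind these calls was also counted. In 1936 of the 2249 DEGs (86.1%), all 5 high-dose libraries lay on one side of all 5 low-dose libraries, against 35.3% of all transcripts tested. Non-overlapping libraries were found for 946 higher and 990 lower DEGs. The DEGs were chosen for differing between these libraries, so these shares follow in part from that choice. Without MS-130 the groups did not overlap in 89.3% of the 2249 DEGs and in 39.8% of all transcripts tested. When each of the 10 libraries was left out in turn, 1755 DEGs (78.0%) were called every time, 847 of them higher and 908 lower. At most 249 of the 2249 DEGs lost their call when a single library was left out. None of the 2249 DEGs (0) changed direction under any of the other settings in which they were tested. Those settings used the same libraries or most of them, so a change of direction was unlikely.

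A small number of transcripts were nearly absent at the low dose and present at the high dose, and the reverse was not seen. In 14 tested transcripts, every low-dose library held at most 3 estimated counts and every high-dose library at least 10. Over all 40071 transcripts, including those below the filter, there were 23 of these, and without MS-130 there were 20 among those tested and 29 in all. For the 14, the mean count in the high-dose libraries had a median of 30.7 and a maximum of 80.2, so all 14 were of low level at the high dose as well. In 6 of the 14, every vehicle library also held at most 3 counts. In 0 transcripts was every high-dose library at 3 counts or fewer and every low-dose library at 10 or more. The high-dose libraries were sequenced more deeply at the median (29365167 against 25283033 estimated counts), and the part of depth in these counts was not tested.

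The number of transcripts with any count was also larger in the high-dose libraries, at 23702 ± 477 (SD, n = 5) against 22357 ± 854 (SD, n = 5). All 5 high-dose libraries (23090 to 24281) were above all 5 low-dose libraries (20861 to 23019), an exact two-sided permutation p of 0.00794, the smallest the design allows, and 0.0238 after adjustment over 3 library measures. The difference persisted when all libraries were thinned to the 20083250 transcript counts of the smallest one, with 22808 ± 138.1 (SD, n = 5) detected transcripts at the high dose and 21887 ± 574.9 (SD, n = 5) at the low dose, again without overlap. Low-dose library MS-130 was the lowest, and leaving it out gave a difference of 971 transcripts in place of 1345. The share of counts taken by the 100 most counted transcripts did not differ detectably (23.5 ± 0.187% at the high dose, 23.4 ± 0.494% at the low dose, SD, n = 5, exact permutation p = 0.611, adjusted p = 0.627).

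Of the 398 higher and 524 lower DEGs with a mean level of at least 3 log2 CPM and non-overlapping libraries, the largest increases and the largest decreases, a pair of each, were followed through all conditions. The largest increase was in ENSRNOT00000013621, a transcript of 10470 bases. Its level in the low-dose libraries was 2.004, 0.486, 1.33, 0.591 and 0 CPM, and in the high-dose libraries 19.0, 16.7, 14.1, 15.99 and 13.9 CPM. The low-dose values were all within reach of the vehicle range of 0 to 2.01 CPM, and each high-dose value was several times the highest of them. The log2 fold change was 4.16 ± 0.47 (SE, n = 5 per group), with an adjusted p of 2.72e-05 in edgeR's quasi-likelihood test. Its estimated counts were not whole numbers in 4 of the 5 low-dose and all 5 high-dose libraries. Part of its reads was therefore also compatible with other targets, transcripts or genomic intervals, and its level is uncertain to that extent.

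ENSRNOT00000018325, a transcript of 1157 bases, showed the next largest increase. It was at 3.07, 3.02, 2.52, 4.77 and 2.86 CPM in the low-dose libraries and at 18.7, 20.5, 20.2, 22.3 and 23.6 CPM in the high-dose libraries. Vehicle libraries were between 1.33 and 2.93 CPM, so the low-dose range extended above the vehicle range but remained far below the high-dose range. The log2 fold change of high against low dose was 2.69 ± 0.15 (SE, n = 5 per group), with an edgeR adjusted p of 8.53e-08. Its estimated counts were not whole in all 5 high-dose libraries and in 1 low-dose library, so reads shared with other targets enter its level as well.

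The largest decrease was in ENSRNOT00000022128, a transcript of 3127 bases. It was at 39.0, 35.2, 35.2, 35.5 and 32.4 CPM in the low-dose libraries and at 6.30, 8.53, 7.46, 6.64 and 7.63 CPM in the high-dose libraries. The low-dose libraries all lay below the vehicle range of 39.5 to 45.8 CPM, by little compared with the distance to the high-dose libraries. High against low dose gave a log2 fold change of -2.27 ± 0.08 (SE, n = 5 per group) with an edgeR adjusted p of 4.42e-09.

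ENSRNOT00000026986, of 2985 bases, was the next largest decrease and had a like profile. It was at 25.5, 30.1, 28.7, 29.0 and 27.9 CPM in the low-dose libraries and at 5.09, 6.86, 6.72, 7.21 and 7.37 CPM in the high-dose libraries, with vehicle between 29.2 and 34.4 CPM. Here the low-dose and vehicle ranges overlapped, and the high-dose libraries were apart from both. The log2 fold change was -2.08 ± 0.09 (SE, n = 5 per group), with an edgeR adjusted p of 1.58e-08. The estimated counts of ENSRNOT00000022128 and ENSRNOT00000026986 were whole in all 15 renal libraries at 9 h.

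**Figure D3:**
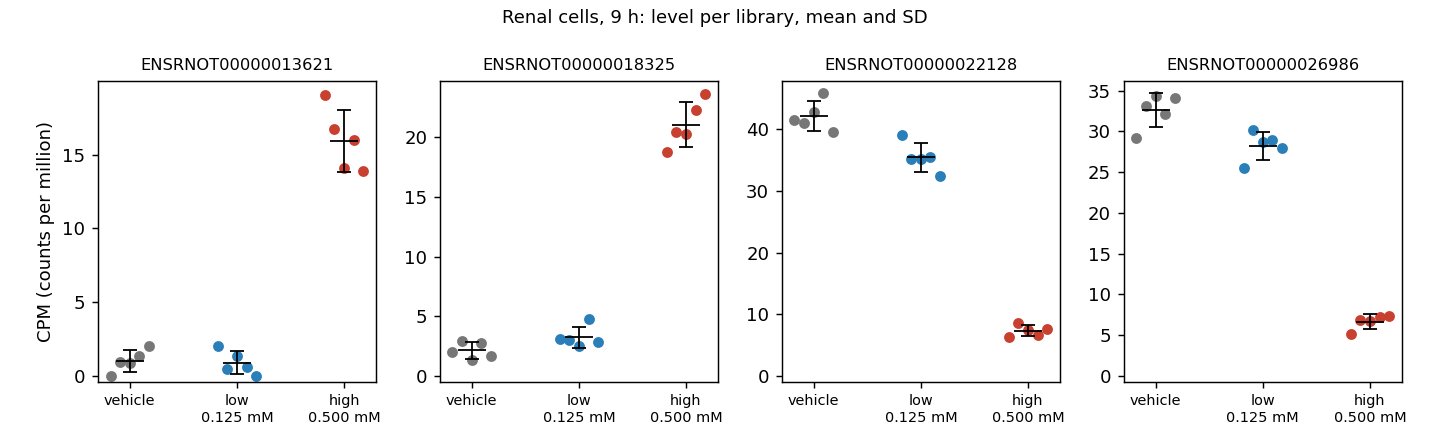
CPM of the 4 named transcripts in each renal library at 9 h (points, 5 per group), with the mean and SD of each group in black; the vertical axes are linear and differ between panels. In all 4 panels the high-dose libraries do not overlap the low-dose libraries, whose means are 0.882, 3.25, 35.5 and 28.2 CPM in the order of the panels, beside vehicle means of 1.02, 2.14, 42.1 and 32.6 CPM.

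The DEGs were also compared with vehicle at each dose. Among the higher DEGs, the median log2 fold change of low dose against vehicle was -0.09 (942 tested), and that of high dose against vehicle was 0.90 (1096 tested). Among the lower DEGs the corresponding medians were 0.02 (1149 tested) and -0.83 (1137 tested). Individual DEGs differed between the low dose and vehicle in both directions. Of the 942 higher DEGs tested, 40 were called higher and 62 lower at the low dose than in vehicle, and of the 1149 lower DEGs 97 were called lower and 76 higher, where 2.28% of all transcripts tested were called higher and 4.41% lower. These comparisons share libraries with the contrast that chose the DEGs, so the medians and counts are a description only.

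Transcripts chosen without the low-dose libraries gave another view of the step between the doses. In high dose against vehicle, 1454 transcripts were higher DEGs (8.16% of 17814 tested) and 1949 were lower DEGs (10.9%). Of the 1454, 1254 also passed the filter in both other comparisons. Over these 1254, the median log2 fold change was 0.90 at the high dose against vehicle, 0.27 at the low dose against vehicle (quartiles 0.03 and 0.56), and 0.66 for high against low dose (quartiles 0.38 and 0.98). Of the 1949, 1837 passed in all 3 comparisons, with medians of -0.91, -0.35 (quartiles -0.72 and -0.10) and -0.59 (quartiles -0.85 and -0.31) in the same order. Over these common members, the median step between the 2 doses was larger in size than that between vehicle and the low dose in both directions, and the quartiles of the 2 steps overlapped. The comparisons share libraries, and no test was made of this difference.

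The share of transcript abundance carried by the DEGs, in TPM (a level per transcript length, scaled to the library total), was small. The higher DEGs held 2.60 ± 0.026% of all transcript TPM in vehicle libraries, 2.36 ± 0.073% in low-dose libraries and 4.66 ± 0.137% in high-dose libraries (SD, n = 5 each). The lower DEGs held 5.95 ± 0.217% in vehicle libraries, 7.16 ± 1.30% in low-dose libraries and 4.16 ± 0.13% in high-dose libraries (SD, n = 5 each). Without MS-130 the low-dose means were 2.35 ± 0.0787% and 7.36 ± 1.41% (SD, n = 4). The difference between the doses in these shares follows from how the DEGs were chosen, but their spread does not. Among the lower DEGs, the low-dose libraries ranged from 5.71 to 9.15%, whereas the high-dose libraries ranged from 3.996 to 4.32%.

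This spread lay in a few abundant transcripts. The 10 lower DEGs most abundant in the low-dose libraries were between 204 and 1830 bases long. They alone held 4.69 ± 1.28% of transcript TPM at the low dose (3.27 to 6.64%), 2.75 ± 0.111% at the high dose and 3.38 ± 0.189% in vehicle libraries (SD, n = 5 each). Without them, the lower DEGs held 2.47 ± 0.0342% at the low dose, 1.41 ± 0.0282% at the high dose and 2.57 ± 0.0299% in vehicle libraries. The 10 had log2 fold changes between -1.13 and -0.64. At the mean, the low-dose level of these 10 was above the vehicle level, while that of the remaining lower DEGs was slightly below it. The 10 were ranked on the low-dose libraries, so nothing is read from their place above vehicle. The most abundant, ENSRNOT00000046201, held 2.25% of transcript TPM in MS-126 and 0.651% in MS-129, beside 0.793 to 1.04% in vehicle libraries. Its libraries overlapped between the doses.

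The share of transcripts called varied more with level than with length. When the transcripts tested were divided into 5 equal groups by mean level, 19.5% of the lowest group were DEGs, and the share was 18.9%, 10.8%, 7.62% and 7.001% in the groups above it. The direction also varied with level. In the lowest group (below 1.20 log2 CPM) 11.8% of the transcripts were higher and 7.65% lower, in the next group 8.56% were higher and 10.3% lower, and in the highest group 3.63% were higher and 3.37% lower. The higher DEGs had a median level of 2.03 log2 CPM and the lower DEGs 2.86 log2 CPM, both below the 3.91 log2 CPM of all transcripts tested.

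In 5 equal groups by length, between 11.4% and 13.7% of each were DEGs. The group of the longest transcripts (3793 to 23724 bases) had 194 higher (5.50%) and 279 lower DEGs (7.91%), while the group of the shortest (up to 1237 bases) had 204 higher and 211 lower. Without MS-130, 6.28% of the shortest were higher and 5.95% lower, and 5.25% of the longest were higher and 8.55% lower. With all libraries, the DEGs of 2-fold or more were 78 higher and 68 lower among the longest and 107 higher and 53 lower among the shortest. Median length was 2226 bases for higher DEGs, 2422 bases for lower DEGs and 2183 bases for all transcripts tested. Transcripts are not replicates, and these shares are descriptions without a test.

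**Figure D4:**
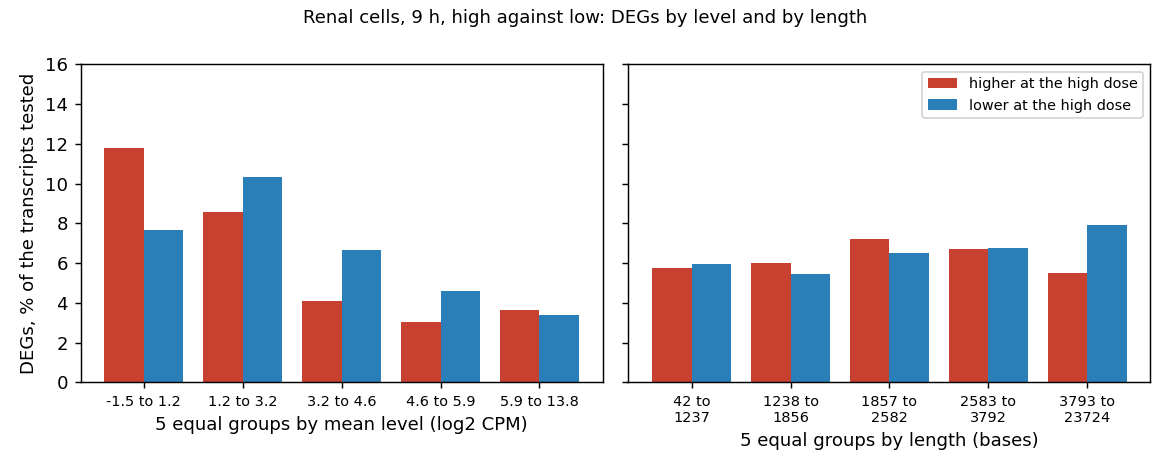
Share of the transcripts tested that were higher (red) or lower (blue) DEGs at the high dose, in % and starting at 0, in 5 equal groups by mean level in log2 CPM (left) and by length in bases (right). The share called falls from 19.5% in the lowest to 7.001% in the highest group by level and varies less by length, with lower DEGs at 7.91% among the longest.

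The same contrast at 24 h, in other libraries of the same cells, gave 1504 higher DEGs (8.38% of 17941 tested) and 2028 lower DEGs (11.3%). Of the higher DEGs at 9 h, 1065 were tested at 24 h and 530 (49.8%) were also called higher, with a median log2 fold change of 0.83. Of the lower DEGs at 9 h, 1138 were tested and 683 (60.0%) were also called lower, with a median of -0.98. The sign was the same at 24 h in 88.5% of the higher and 93.6% of the lower DEGs. These 1213 transcripts are 55.1% of the 9 h DEGs tested at both times and 34.3% of the 3532 DEGs at 24 h. Across the 17340 transcripts tested at both times, Pearson's r between the log2 fold changes was 0.57 and Spearman's rho 0.59, and transcripts are not independent replicates.

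The shared calls were also counted by the size of the change at 9 h. Among DEGs of 2-fold or more, 270 of 448 higher (60.3%) and 237 of 323 lower (73.4%) had the same call at 24 h, against 260 of 617 (42.1%) and 446 of 815 (54.7%) under 2-fold. Above 2-fold the shares did not run one way among the higher DEGs and fell among the lower DEGs, which were few there. Of the higher DEGs the same call was found in 54.4% at 2- to 4-fold, in 64 of 80 at 4- to 8-fold and in 22 of 30 at 8-fold or more, and of the lower DEGs in 228 of 304, in 7 of 13 and in 2 of 6. Low-dose library MS-145 at 24 h had the fewest counts of its group (15078809) and 46.4% of its counts in the 100 most counted transcripts. Without it, 627 of 1079 higher (58.1%) and 754 of 1146 lower DEGs (65.8%) had the same call at 24 h, where 10.6% of all transcripts tested were then called higher and 12.6% lower.

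**Figure D5:**
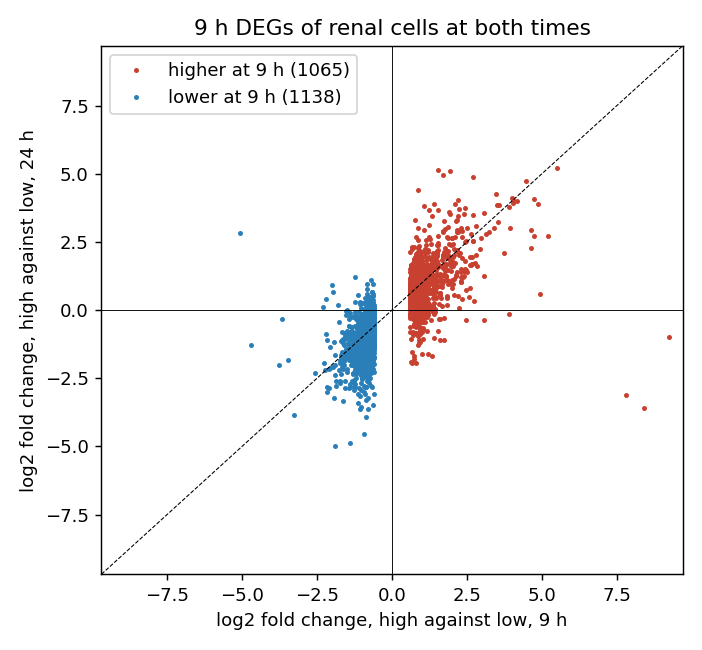
Log2 fold change of high against low dose at 24 h (vertical axis) against that at 9 h (horizontal axis) for the 2203 DEGs of 9 h tested at both times; red points were higher at 9 h (1065) and blue points lower (1138), and the dashed line marks equal changes. Most points lie in the quadrants of equal sign, 88.5% of the red and 93.6% of the blue ones.

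Only a few of the 9 h DEGs were called in the opposite direction at 24 h. Of the 1065 higher DEGs tested at 24 h, 22 (2.07%) were called lower, beside 11.3% of all transcripts tested, and of the 1138 lower DEGs 3 were called higher (0.264%), beside 8.38% of all. These 3 are named here although they were chosen after their values were seen. ENSRNOT00000036753 (2856 bases) had a log2 fold change of -0.64 ± 0.07 at 9 h and 0.59 ± 0.18 at 24 h (SE). It was at 14.3, 17.9, 16.6, 16.1 and 15.9 CPM in the low-dose libraries at 9 h and at 10.8, 11.3, 9.73, 10.5 and 9.49 CPM in the high-dose libraries, which did not overlap. Without library MS-145 its change at 24 h was 0.45, below the fold-change threshold. Without that library, 23 of 1079 higher DEGs were called lower at 24 h, beside 12.6% of all transcripts tested, and 5 of 1146 lower DEGs higher, beside 10.6% of all. Of these 5, 2 were also called with it. The other 3, ENSRNOT00000006143, ENSRNOT00000078108 and ENSRNOT00000083487, had libraries that overlapped between the doses at 9 h.

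ENSRNOT00000048172 (3513 bases) was a transcript of low level, at 1.96, 2.05, 1.46, 1.69 and 2.51 CPM in the low-dose libraries and 1.17, 1.13, 1.19, 1.31 and 1.18 CPM in the high-dose libraries at 9 h. Its log2 fold change was -0.69 ± 0.18 at 9 h and 1.09 ± 0.21 at 24 h (SE). ENSRNOT00000083055 (2151 bases) was at 17.5, 13.5, 11.2, 16.4 and 11.2 CPM in the low-dose libraries and at 10.1, 6.24, 9.99, 8.77 and 9.49 CPM in the high-dose libraries at 9 h. Its log2 fold change was -0.65 ± 0.16 at 9 h and 0.68 ± 0.10 at 24 h (SE). For both, the high-dose libraries at 9 h lay below all low-dose libraries. The estimated counts of ENSRNOT00000083055 were not whole in any of the 15 renal libraries at 9 h, so reads shared with other targets enter its level. The dose difference between the times in these 3 transcripts was 1.26, 1.81 and 1.36 on the log2 scale, which follows from how they were chosen and is given without a test.

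Over all transcripts, 1470 of 18798 (7.82%) had a dose difference that changed between 9 and 24 h by edgeR's dose-by-time test, 3.28% toward more positive and 4.54% toward more negative values at 24 h. Among the 1099 higher DEGs at 9 h, 7.55% had a more positive difference at 24 h and 9.37% a less positive one. Among the 1150 lower DEGs, 13.9% had a more negative difference at 24 h and 5.65% a less negative one. The DEGs were chosen on the 9 h libraries that this test also uses, so nothing is read from these shares. The 4 transcripts named for their size at 9 h changed in the same direction at 24 h, by log2 fold changes of 4.002 in ENSRNOT00000013621, 3.47 in ENSRNOT00000018325, -1.93 in ENSRNOT00000022128 and -2.13 in ENSRNOT00000026986. The difference between the times did not pass the test in any of them (edgeR adjusted p of 0.97, 0.084, 0.17 and 0.98, in the same order). For ENSRNOT00000018325, CPM scaled over all 90 libraries reached 55.9 ± 9.19 at the high dose at 24 h, against 18.9 ± 1.83 at 9 h (SD, n = 5 each). At the low dose it was 5.10 ± 2.20 at 24 h, against 2.98 ± 0.82 at 9 h (SD, n = 5 each).

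In the other cell types, the high-against-low contrast at 9 h was made at other doses, 0.125 against 0.025 mM in hepatocytes and 1.50 against 0.50 mM in cardiomyocytes, so values are set side by side only. In hepatocytes, 849 of the renal higher DEGs were tested, and 120 (14.1%) were called higher and 33 lower, where 3.73% of all transcripts tested there were higher. Of the renal lower DEGs, 743 were tested, and 83 (11.2%) were called lower and 32 higher, where 3.82% of all were lower. In cardiomyocytes, 16.8% of the 963 renal higher DEGs tested were called higher and 3.12% lower, where 3.26% of all were higher. Of 987 renal lower DEGs, 160 (16.2%) were called lower and 19 higher, where 4.43% of all were lower. With all libraries, the shared calls are 19.3% and 13.1% of the higher and lower DEGs of hepatocytes, and 27.0% and 19.6% of those of cardiomyocytes. Cardiomyocyte low-dose library MS-158 had the fewest counts of its group (17494079) and 46.0% of its counts in the 100 most counted transcripts. Without it, 20.6% of 976 renal higher DEGs were called higher, where 4.70% of all were higher, and 20.7% of 991 renal lower DEGs were called lower, where 6.44% of all were lower. These calls are 22.9% and 17.1% of the higher and lower DEGs of cardiomyocytes without that library.

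The levels and dose differences of the 4 transcripts named for their size are given side by side for the other cell types. ENSRNOT00000018325 was far more abundant in the other cell types than in renal cells, with group means between 414 and 690.0 CPM in hepatocytes and between 248 and 497 CPM in cardiomyocytes, on the scale over all libraries. The 414 CPM belong to hepatocyte vehicle at 24 h, where the median was 499 CPM. That group holds library MS-183, with only 249303 transcript counts and 91.7% of its counts on genomic intervals. The dose difference of ENSRNOT00000018325 at 9 h was 0.04 ± 0.05 log2 in hepatocytes (adjusted p = 0.53) and 0.34 ± 0.08 in cardiomyocytes (adjusted p = 0.019, edgeR), the latter below the fold-change threshold. ENSRNOT00000013621 had log2 fold changes of 0.40 ± 0.34 and 0.18 ± 0.35 in hepatocytes and cardiomyocytes and passed the test in neither. ENSRNOT00000022128 was too low to be tested in hepatocytes, where group means did not exceed 0.345 CPM, and fell by 0.65 ± 0.16 on the log2 scale in cardiomyocytes (edgeR adjusted p = 0.026). ENSRNOT00000026986 was near or below 1 CPM on average in both other cell types, with log2 fold changes of -0.04 ± 0.23 and 0.21 ± 0.52 (SE). Without MS-158 the cardiomyocyte changes were 0.33 ± 0.35 in ENSRNOT00000013621 and 0.01 ± 0.39 in ENSRNOT00000026986, and those of ENSRNOT00000018325 and ENSRNOT00000022128 were 0.29 ± 0.06 and -0.76 ± 0.12 (SE). Whether these differences are larger in renal cells was not tested.

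The tables also hold genomic intervals, named by position and not by transcript. At 9 h, 7256 intervals were tested between the doses, and 1532 (21.1%) passed the thresholds used for DEGs, 971 of them higher and 561 lower at the high dose. When intervals and transcripts were scaled and fitted together, 1137 were higher and 343 lower, and the median log2 fold change of the intervals was 0.12 in place of 0.01. The intervals' share of all counts did not differ detectably between the doses (6.56 ± 0.692% at the high dose, 6.80 ± 0.953% at the low dose, SD, n = 5, exact permutation p = 0.627, adjusted p = 0.627).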

How the data were processed

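Poly-A-enriched RNA libraries of renal cells were made with a stranded kit and sequenced as read pairs. According to the study's methods, reads were pseudo-aligned with Kallisto to the transcriptome of Rnor_6.0, and the submitters' processing notes give version 0.42.4. For each target, a transcript or an interval, the authors deposited an estimated count and a TPM value. The count need not be whole, because reads that match more than one target are split. Groups came from the sample labels. The members, lists and tests were chosen with earlier results of these data known.

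Estimated counts of Ensembl transcripts were rounded and compared with edgeR 4.0.16 in R 4.3.3 (TMM scaling, filterByExpr, glmQLFit and glmQLFTest), fitting the 5 libraries of each group alone, with Benjamini-Hochberg adjustment over all transcripts tested. Sleuth, the authors' tool, was not used here. The standard error was the log2 fold change divided by the square root of the F statistic. The dose-by-time test used the 20 renal libraries of both doses and times in one fit. Library measures were compared by exact two-sided permutation tests. Thinned counts of detected transcripts are expected numbers. Alternatives were DESeq2 1.42.0, limma 3.58.1 on log2(CPM + 0.5), upper-quartile scaling, other filters, other fold-change thresholds, transcripts with whole counts only, log2(TPM + 1), one fit with the intervals, and each library left out. Further alternatives added the 9 h vehicle libraries, or the 24 h libraries of both doses, to the fit.

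The named transcripts are the 2 largest increases and 2 largest decreases among DEGs with a mean of at least 3 log2 CPM and non-overlapping libraries. Planned gene lists and marker lists could not be scored, because no table paired transcripts with genes.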

Additional observations from a re-analysis of the deposited data

Results flagged for a closer look

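Low-dose library MS-130 had 20861 transcripts with a count, far below the 4 other low-dose libraries relative to their range. ENSRNOT00000018325 was at 4.77 CPM in low-dose library MS-129, far above the other low-dose libraries, and still below every high-dose library. ENSRNOT00000026986 was at 5.09 CPM in high-dose library MS-131, far below the other high-dose libraries. A single sample stands out in this way in about 1 in 20 groups by chance, and 16 groups of values were examined. The high-against-low difference changed between 9 and 24 h in 1470 transcripts by the test of that difference. Outside the transcripts, 1532 genomic intervals differed between the doses at 9 h. The causes were not tested.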

How the results depend on the processing

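The number of DEGs at 9 h stayed within 1.5 times its value with DESeq2, limma, upper-quartile scaling, both other filters, and one fit with the intervals. The same held with the 9 h vehicle libraries, or the 24 h libraries of both doses, added to the fit. The balance of the directions varied, with 1015 higher and 1312 lower in the fit with the intervals. With the 24 h libraries added, 888 were higher and 1069 lower. Transcripts whose estimated counts were whole in all libraries, fewer by construction, gave 1086 DEGs (531 higher, 555 lower). Without a fold-change threshold there were 8011 (4027 higher, 3984 lower), and at 2-fold or more 809 (477 higher, 332 lower). The DEGs with the same call at 24 h then numbered 3414 and 447. Leaving out each library gave 2108 to 2371 DEGs (996 to 1171 higher, 1109 to 1200 lower) and 1322 to 1914 in the dose-by-time test. With each 9 h library left out in turn, or MS-145 alone among those of 24 h, 1176 to 1381 had the same call at 24 h. The difference in detected transcripts was 971 to 1511 with each library left out. The other library measures had no stable sign: the difference in the intervals' share ranged from -0.585 to 0.0459 percentage points, positive only without high-dose library MS-132, and that of the 100 most counted transcripts from -0.00877 to 0.316, negative only without low-dose library MS-130. The 24 h contrast had 4234 DEGs without MS-145, the intervals 1688 calls without MS-130, and the cardiomyocyte contrast 2078 DEGs without MS-158. On the log2(TPM + 1) scale the changes of ENSRNOT00000013621, ENSRNOT00000018325, ENSRNOT00000022128 and ENSRNOT00000026986 were 1.47, 2.49, -1.97 and -1.78. With each library left out they were 3.87 to 4.70, 2.61 to 2.87, -2.33 to -2.23 and -2.12 to -2.01. Leaving out MS-126 with MS-130, thinning, leaving out MS-145, MS-158 or MS-130 from the descriptions, and the interval, 24 h and other-cell-type alternatives were chosen after seeing the data. No paired analysis was possible because the replicate numbers of the labels are not shared between the groups. Few counts lie behind transcripts of low level, which limits their precision.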
